A study of Mus musculus with 6 samples.

Results

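Lysosomal genes were examined in macrophages that were differentiated in culture from mouse bone marrow. The 40 genes were chosen by symbol, for what their products do, from the 26778 genes of the authors' deposited table, by a rule that uses no expression value. They encode cathepsins and other peptidases, hydrolases of glycans and lipids, membrane proteins, proton pump subunits and the transcription factors TFEB and TFE3. All 40 were tested in the table. RNA was sequenced from 6 libraries of C57BL/6 cells, with 3 libraries labelled wild type (Flt1+/+) and 3 labelled Flt1 heterozygous (Flt1+/-). Flt1 encodes VEGF receptor 1. Marrow was grown with L292 conditioned medium to day 7, then placed in starvation medium at 2% oxygen for 6 h. Both groups received this challenge and no untreated library was analysed here, so the genotypes are compared under hypoxia with starvation alone. The labels do not say what kind of allele the heterozygotes carry or whether each library is a separate animal, so p-values reflect library-to-library spread that could be technical.

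Lysosomes are acidic organelles in which macrophages digest what they engulf and what they recycle from their own cytoplasm. A proton pump, the V-ATPase, acidifies the lumen, soluble hydrolases are delivered there largely by mannose 6-phosphate tags, and heavily glycosylated membrane proteins line the inner face of the membrane. TFEB and TFE3 move to the nucleus when nutrients are scarce and bind CLEAR elements, which hold the E-box core CACGTG, in the promoters of many lysosomal genes.

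The authors' table gives a mean normalized read count per group, which is a count divided by a size factor for each library, and no values for single libraries. Whole counts per library were recovered from those means (n = 3 a group), and the libraries of a group carry the letters A, B and C since replicate numbers cannot be assigned to them. The libraries held about 25130000 to 42070000 counted reads, the fewest in heterozygote C. Counts were resolved for 28 of the 40 lysosomal genes, 7 of them (Man2b1, Ctsc, Ctsl, Gusb, Npc2, Lamp2 and Tfe3) only under the condition that each library lay within 30% of its group mean. The other 12, among them Psap, Ctsb, Ctsd and Lamp1, have means too high to resolve and are given as group means without an SD. Flt1 had too few reads to check the genotype labels (wild type 6.66 ± 3.32 normalized counts, Flt1+/- 12.7 ± 4.47, SD, n = 3 each) and was not lower in Flt1+/-, so directions are given between libraries by their labels. Reads of mt-Co2, a mitochondrial gene, are listed at 0 for wild type C and heterozygotes B and C and were present in the other 3 libraries; values within these sets are given where they bear on a result.

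Every lysosomal gene that passed the test was lower in the Flt1+/- libraries. Cd68, Cd63, Gla, Psap, Man2b1, Ctsb and Hexa fell. By the authors' group means Cd68 fell by 35.8%, the most of the 7, and Hexa fell by 18.2%, the least. Calls use the adjusted p of the authors' deposited table at 0.05. That is 7 of 40 called lower (17.5%), against 3.52% of all 15789 tested genes, and 0 of 40 called higher, against 2.51%. Called genes in either direction made up 6.04% of those tested. Among tested genes with a mean of at least 1000 normalized counts, as 39 of the 40 have, 4.07% were called lower and 2.75% higher, 6.82% in all. Among the 33 genes that were not called, 26 also had a lower mean in Flt1+/-. The log2 ratio of the means, after adding 1 to each, was below 0 for 33 of 40 lysosomal genes (82.5%) and for 51.1% of all tested genes. Its median was -0.13 over the lysosomal genes, -0.12 over those not called and -0.01 over all genes tested. In bulk RNA fewer cells of a type and less RNA per cell cannot be told apart.

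**Figure D1:**
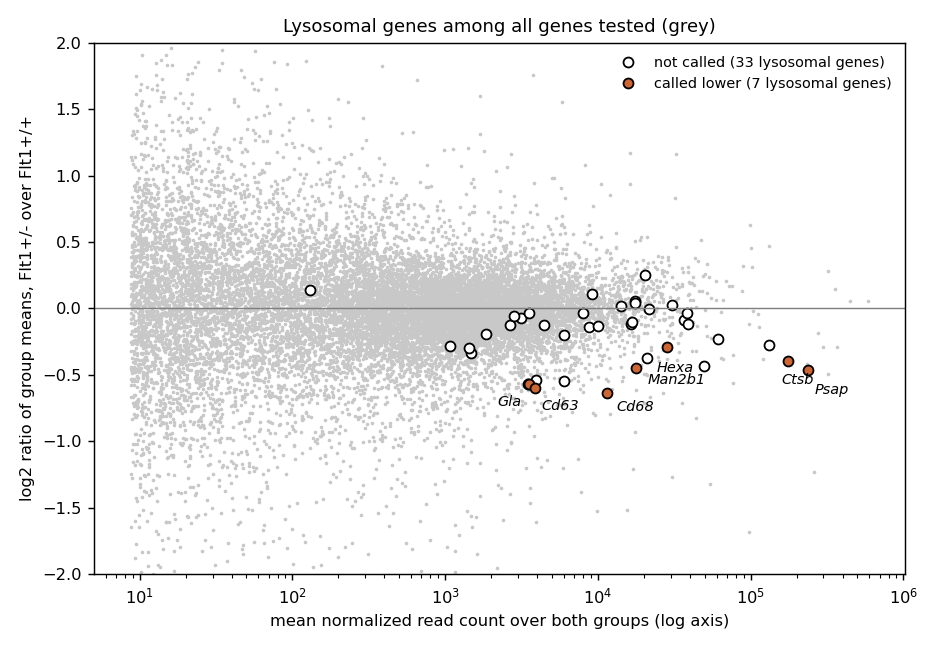
Log2 ratio of the group means, Flt1+/- over Flt1+/+ (vertical axis), against the mean normalized read count over both groups (horizontal axis, log scale) for 15789 tested genes in grey and 40 lysosomal genes as circles. Filled circles are the 7 genes called lower in the authors' deposited table and lie from -0.64 to -0.29, and 105 grey genes lie beyond the axis limit of 2 in either direction.

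Where library values separated the groups, Flt1+/- was the lower. The 3 Flt1+/- values lay entirely below the 3 wild type values for 9 of 28 genes (32.1%), against 12.2% of 15361 genes in the fit across libraries, and entirely above for 0, against 11.4%. These 9 were Cd68, Cd63, Gla, Man2b1, Neu1, Naglu, Ctsf, Smpd1 and Atp6v0d1, and the groups overlapped for the other 19. The median over the 28 genes of the log2 value relative to the wild type mean was -0.13, -0.13 and -0.20 in heterozygote libraries A, B and C and 0.04, -0.03 and -0.01 in wild type A, B and C. Within the libraries that have mt-Co2 reads the median log2 difference was -0.13, and within those without it was -0.10. In the first set Flt1+/- is heterozygote A alone, and in the second wild type is library C alone. Of 28 genes 20 were lower in both sets, 3 higher in both, and 5 went opposite ways. The share of all genes lower in both sets was not counted. Fitted with limma across all genes, the recovered counts gave 1 call of 28, Cd68, lower (1.45% of 15361 genes were called lower and 0.859% higher). Without heterozygote library B, limma called 4 of 28 lower (1.57% of genes), namely Cd68, Neu1, Naglu and Gaa, and 0 without any other library. In those omissions the share of all genes called lower was 0.476% without wild type A, 0.156% without B, 0.196% without C, 0.626% without heterozygote A and 0.299% without heterozygote C. With a term for the mt-Co2 sets limma called 2 of 28 lower, Cd68 and Man2b1, against 2.15% of genes.

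**Figure D2:**
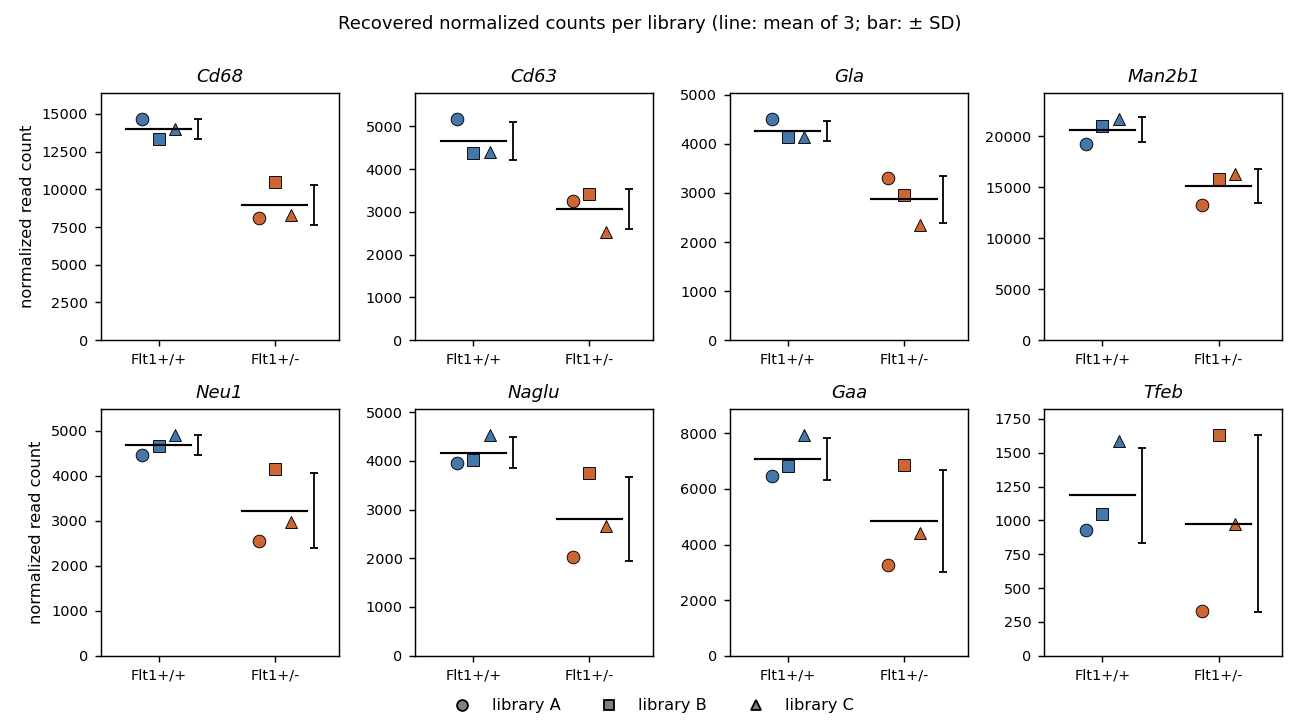
Normalized read counts in each recovered library (points, 3 a group, lettered A to C) for lysosomal genes named in the text, each in its own panel with its own scale from 0; lines are means and bars ± SD. For Cd68, Cd63, Gla and Man2b1 all Flt1+/- points lie below all Flt1+/+ points, while for Tfeb the Flt1+/- points run from 328 to 1631 and enclose the wild type points.

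Membrane glycoproteins held the gene with the smallest p. Cd68 encodes macrosialin, a heavily glycosylated protein of macrophage late endosomes and lysosomes (chr11:69664213-69666153, build mm10). Its normalized counts were 14627, 13319 and 13968 in wild type libraries A, B and C and 8088, 10513 and 8297 in Flt1+/- libraries A, B and C. The groups did not overlap, and the highest Flt1+/- library was B. The means were 13971 ± 654 and 8966 ± 1344 (SD, n = 3 each). In the authors' deposited table Cd68 has a log2 fold change of -0.60 ± 0.13 (standard error; adjusted p 0.000327). With limma the adjusted p was 0.040, and it was 0.0934 to 0.152 when any library other than heterozygote B was left out. Cd63, a tetraspanin of late endosomes and of the vesicles they release (chr10:128900989-128912822), stood at 5159, 4372 and 4409 in wild type and 3249, 3408 and 2527 in Flt1+/-. Here too the groups were separate, with heterozygote C lowest. Cd63 fell, with -0.55 ± 0.14 on the log2 scale (standard error; adjusted p 0.00465) in the authors' deposited table, while limma gave an adjusted p of 0.0764.

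The other membrane glycoproteins were not called. LAMP1 and LAMP2 are among the most abundant proteins of the lysosomal membrane, and LIMP-2, encoded by Scarb2, carries glucocerebrosidase to the lysosome. Lamp1 had group means of 66128 and 56227 in the authors' deposited table (adjusted p 0.214). Lamp2 stood at 17348 ± 738 and 17871 ± 2302, and Scarb2 at 6438 ± 240 and 5596 ± 545 (SD, n = 3 each). Libraries of the genotypes overlapped for both. The class had 2 of 5 called lower, against 3.52% of all tested genes, and a median log2 ratio of -0.23.

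Of 8 glycan hydrolases 3 were called lower, against 3.52% of all tested genes, and the median log2 ratio of the class was -0.49. Gla encodes alpha-galactosidase A, which removes terminal galactose from globotriaosylceramide and whose loss causes Fabry disease in humans (chrX:134588149-134601125). Its libraries read 4499, 4149 and 4135 in wild type and 3305, 2959 and 2352 in Flt1+/-. No Flt1+/- library reached the lowest wild type library, and heterozygote C was again lowest. Gla fell, with -0.52 ± 0.14 in the authors' deposited table (log2 fold change, standard error; adjusted p 0.00748). Man2b1, lysosomal alpha-mannosidase (chr8:85083270-85098282), stood at 19259, 20979 and 21652 in wild type and at 13217, 15842 and 16313 in Flt1+/-. These groups were separate as well, with heterozygote A lowest. Man2b1 fell, with -0.42 ± 0.12 in the same columns of the authors' deposited table (adjusted p 0.0130). With limma neither passed, at adjusted p of 0.0818 for Gla and 0.0801 for Man2b1. Hexa, the alpha subunit of beta-hexosaminidase A, which degrades GM2 ganglioside (chr9:59539540-59565109), had group means of 31334 and 25621 and fell, with -0.28 ± 0.09 (authors' deposited table, adjusted p 0.0266).

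Neu1, Naglu and Gaa were not called, and their Flt1+/- libraries spread further apart than those of Gla and Man2b1, by 1.63-fold, 1.84-fold and 2.09-fold from lowest to highest against 1.41-fold and 1.23-fold. Neu1 encodes lysosomal sialidase, Naglu an enzyme of heparan sulfate breakdown, and Gaa acid alpha-glucosidase, which degrades glycogen and is deficient in human Pompe disease. Neu1 stood at 4463, 4653 and 4904 normalized counts in wild type and 2551, 4151 and 2966 in Flt1+/-. Naglu stood at 3955, 4013 and 4532 and at 2031, 3745 and 2655. Gaa stood at 6478, 6816 and 7943 and at 3282, 6868 and 4421. In each of them heterozygote B was the highest Flt1+/- library and A the lowest, and for Gaa library B lay inside the wild type range. The log2 ratios of the group means were -0.54 for Neu1, -0.57 for Naglu and -0.54 for Gaa, beside -0.57 for Gla and -0.45 for Man2b1. The authors' deposited table lists log2 fold changes of -0.47, -0.48 and -0.44 for the 3 uncalled genes, with adjusted p of 0.0740, 0.115 and 0.235. Within the libraries with mt-Co2 reads, heterozygote A against wild type A and B, the log2 differences were -0.84, -0.97 and -1.02, and within those without they were -0.46, -0.50 and -0.49. The remaining hydrolases of this class overlapped between genotypes: Glb1, beta-galactosidase, at 3195 ± 142 and 3040.1 ± 96.5, and Gusb, beta-glucuronidase, at 17213 ± 2522 and 17935 ± 2052 (SD, n = 3 each).

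Psap and Grn encode precursors of lysosomal cofactors. Prosaposin is cut into the saposins, which present sphingolipids to their hydrolases, and progranulin is cut into granulins. Psap (chr10:60277627-60302597) was the most abundant of the lysosomal genes, with group means of 274028 and 198622 normalized counts, and it fell by 27.5%; the authors' deposited table lists -0.44 ± 0.11 on the log2 scale (standard error; adjusted p 0.00389). Grn had means of 57407 and 42408, a log2 ratio of -0.44 against -0.46 for Psap, but was not called (authors' deposited table, adjusted p 0.134). Neither was resolved by library. Psap, Ctsb and Ctsd together gave 51.8% of the normalized counts of the 40 genes in wild type and 47.8% in Flt1+/-. The 40 genes together gave 3.39% and 2.87% of all normalized counts.

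Peptidases gave 1 lower call among 12 genes, too few to set them apart from the 3.52% of all tested genes called lower. Cathepsins B, C, F, H, K, L, S and Z and legumain are cysteine proteases, cathepsin D is an aspartic protease, and cathepsin A and TPP1 are serine peptidases. Ctsb, which encodes the abundant cathepsin B (chr14:63122462-63145919), had group means of 200969.9 and 152924 normalized counts and fell by 23.9%, at -0.37 ± 0.12 on the log2 scale (authors' deposited table, standard error; adjusted p 0.0288). Cathepsin D had means of 143941 and 118972 (adjusted p 0.448), and Ctsz means of 23659 and 18242 (adjusted p 0.220), in the authors' deposited table. Ctsf stood at 1587, 1678 and 1688 normalized counts in wild type and 1122, 1384 and 1419.6 in Flt1+/-. Its groups did not overlap, yet it was not called (adjusted p 0.153 in the authors' deposited table, 0.195 with limma). Ctsc encodes dipeptidyl peptidase I, which activates the serine proteases of granulocytes and lymphocytes, and had the highest ratio of the 40 genes, 0.25 on the log2 scale. Its libraries read 16338, 19855 and 19759.7 in wild type and 22604, 18245 and 25758 in Flt1+/-, with heterozygote B inside the wild type range. It was not called (authors' deposited table, adjusted p 0.520).

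The other peptidases were not called. Cathepsin S, which processes the invariant chain of MHC class II, had means of 37932 and 35681, and legumain, an asparaginyl endopeptidase that activates other cathepsins, 39055 and 38135. Ctsl stood at 17125 ± 3780.04 and 15819 ± 1988, Ctsh at 2797 ± 372 and 2561 ± 297, and Tpp1 at 9179.7 ± 1682 and 8339.8 ± 431 (SD, n = 3 each). Ctsa, whose product protects sialidase and beta-galactosidase in a complex, had means of 40223 and 37055. Libraries of Ctsl, Ctsh and Tpp1 overlapped between genotypes. Ctsk, the collagen-degrading cathepsin of osteoclasts, was the least abundant of the 40 at 124 ± 69.7 and 136 ± 47.4, and its values ran from 70.4 to 203 within wild type alone.

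Genes for lipid breakdown and export gave 0 calls of 6, with a median log2 ratio of -0.07. Of all tested genes 3.52% were called lower and 2.51% higher, so 6 genes are too few to set this class apart. Lipa encodes lysosomal acid lipase, which frees cholesterol from its esters, and had means of 30459 and 30944. NPC1 and NPC2 pass that cholesterol out of the lysosome; Npc1 stood at 8141 ± 115 and 7957 ± 302 and Npc2 at 17226 ± 1065 and 16083 ± 552 (SD, n = 3 each). Asah1, acid ceramidase, stood at 8755 ± 509 and 9434 ± 1051, and Ppt1, palmitoyl-protein thioesterase, at 4655 ± 401 and 4264 ± 394. All of these overlapped between groups where libraries were resolved. Smpd1, acid sphingomyelinase, was the exception, at 1509, 1582 and 1641 in wild type and 1059.9, 1479 and 1302 in Flt1+/-, without overlap but not called (adjusted p 0.336 in the authors' deposited table).

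Proton pump subunits and the 2 smaller membrane proteins were not called either. Atp6v0d1, a subunit of the membrane sector, stood at 10550.5, 10360.5 and 10372 in wild type and 9351, 9325 and 9883 in Flt1+/-. The groups were separate by a small margin, the mean differing by -8.71%, and the gene was not called (authors' deposited table, adjusted p 0.540). Atp6v1a, the catalytic subunit, had means of 21514 and 21404, and Atp6v1h, a regulatory subunit, stood at 3590.3 ± 127 and 3500.5 ± 383 (SD, n = 3 each). Mcoln1, the calcium channel of the lysosome whose opening activates TFEB through calcineurin, stood at 2129.5, 1872 and 1933 in wild type and 1732.5, 1930.2 and 1532 in Flt1+/-. Heterozygote B lay inside the wild type range, and the adjusted p was 0.578 in the authors' deposited table. Cln3, a membrane protein lost in human juvenile Batten disease, stood at 2884 ± 193 and 2779 ± 295.

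Neither transcription factor was called. Tfeb stood at 927, 1047 and 1584 normalized counts in wild type and 328, 1631 and 971 in Flt1+/-, a 4.98-fold spread among the Flt1+/- libraries. The order of those libraries, A lowest and B highest, was also that of Cd68, Neu1, Naglu, Gaa, Smpd1, Cln3 and Tfe3. Heterozygote B was the highest Flt1+/- library for 12 of 28 resolved genes and the lowest for 9. Heterozygote A was the highest for 11 and the lowest for 10. The share of all genes with the order of Tfeb was not counted. For Tfeb the log2 ratio of the means was -0.28. The authors' deposited table lists -0.11 ± 0.25 for it (standard error, adjusted p 0.925). The limma difference of Tfeb ran from -1.03 to 0.12 as single libraries were left out. Tfe3 was more abundant, at 12915, 14245 and 15315 in wild type and 12452, 15968 and 14479 in Flt1+/-. Its Flt1+/- counts were solved only under the condition that each library lay within 30% of the group mean. That condition limits their spread, so it cannot be compared with the spread of Tfeb. The groups of Tfe3 overlapped throughout, with means 0.999% apart.

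**Figure D3:**
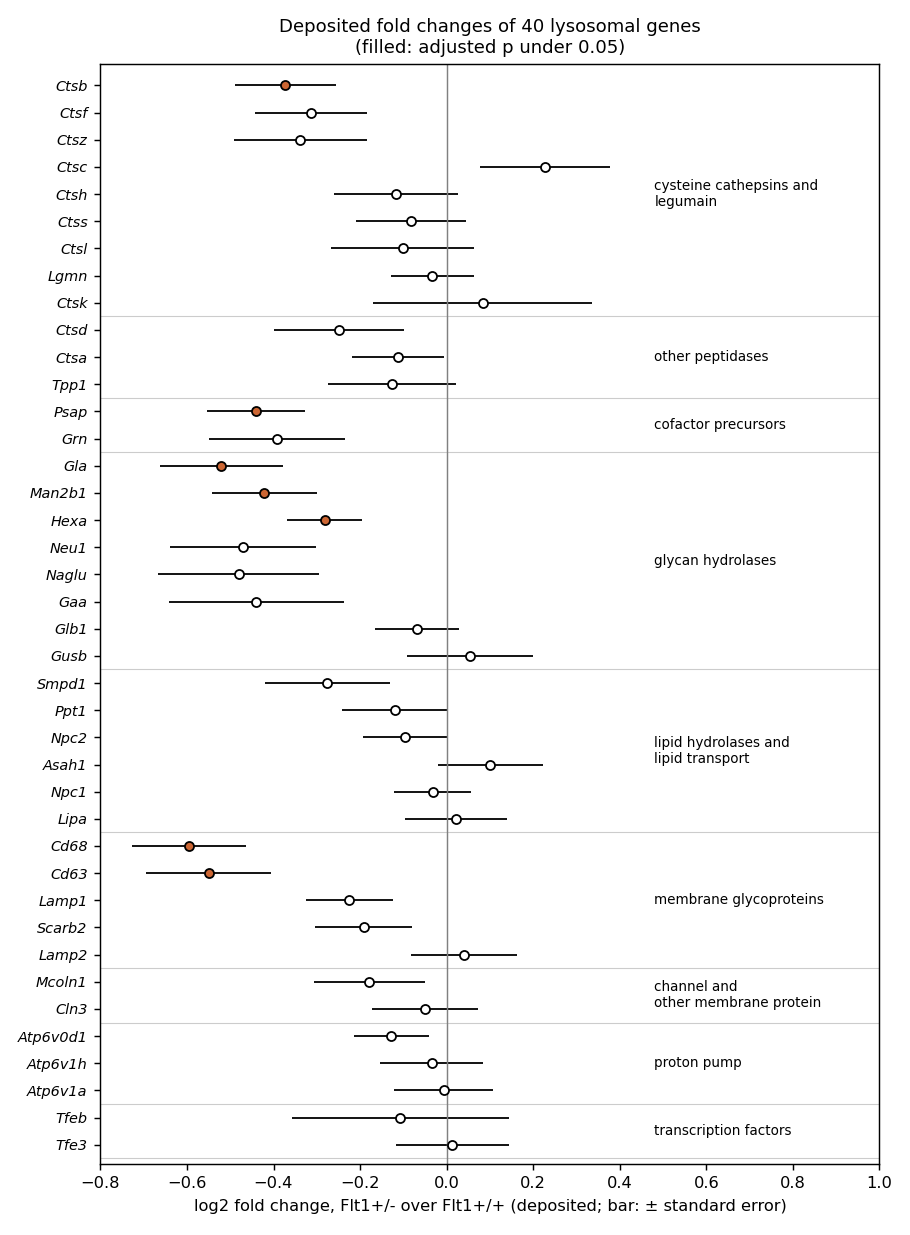
Log2 fold change, Flt1+/- over Flt1+/+, with its standard error (bars) from the authors' deposited table for the 40 lysosomal genes, grouped by role. The 7 genes called at an adjusted p of 0.05 are marked and all lie below 0, between -0.60 for Cd68 and -0.28 for Hexa.

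The call threshold fell between close neighbours. Man2b1, Hexa and Ctsb were the 3 called genes with the largest adjusted p, at 0.0130, 0.0266 and 0.0288 in the authors' deposited table. Neu1, Naglu and Grn were the uncalled genes nearest to it, at 0.0740, 0.115 and 0.134, with ratios at least as low as that of Ctsb (-0.54, -0.57 and -0.44 against -0.39 on the log2 scale).

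Levels can be compared between genes once divided by length, here the merged exons of each gene in GENCODE M21. On that scale, normalized counts per kilobase, Psap led in both genotypes at 99865 in wild type and 72384 in Flt1+/-, followed by Ctsd at 61225 and 50605. Ctsb came next in wild type at 33213, with Ctss at 27932, and these neighbours changed places in Flt1+/-, at 25273 and 26275. Lamp1 was the fifth at 24721 and 21019. The lowest levels were those of Mcoln1 at 262 and 229, Tfeb at 209 and 172, and Ctsk at 81.8 and 89.9, so the genes span 1004-fold from Psap to Ctsk on their mean over both groups.

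**Figure D4:**
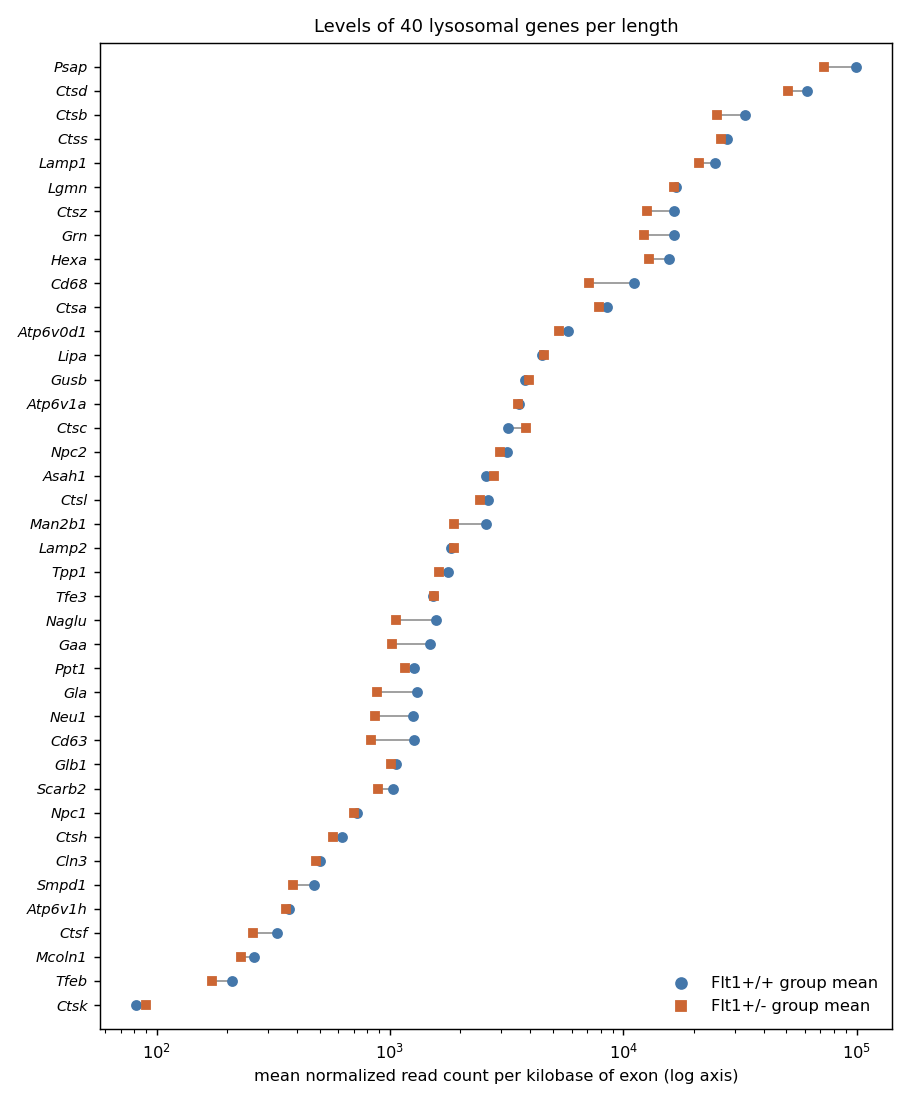
Mean normalized read count per kilobase of exon (horizontal axis, log scale) of the 40 lysosomal genes in Flt1+/+ (circles) and Flt1+/- (squares), ordered by level. Psap lies at 99865 and 72384 at the top and Ctsk at 81.8 and 89.9 at the bottom, and the distance between paired symbols is small beside the range between genes.

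Some of these genes share exonic bases with a neighbour, and the sources used here do not say whether reads were counted by strand. Of the 40 genes 13 share at least 1 exonic base and 5 share at least 10% (Ctsa, Ctsb, Ctsd, Ctsl and Hexa). Exons of Ctsb lie across Fdft1, squalene synthase, on the opposite strand over 774 bases (12.8% of Ctsb), and Fdft1 had authors' means of 679 and 1563, few beside those of Ctsb. Hexa shares 12.8% of its bases with Tmem202, whose means were 117 and 143. Ctsa shares 10.5% with Pltp on the opposite strand, at means of 24929 and 15246, and Pltp fell (authors' deposited table, adjusted p 0.00698), so the values of Ctsa are uncertain. Ctsd shares 34.4% with Gm49369 on its own strand, listed at 318 and at 0 but not called (authors' deposited table, adjusted p 0.825). Ppt1 shares 3.51% with Cap1 on the opposite strand, whose means were 45821 and 57671, far above those of Ppt1, and Cap1 rose (authors' deposited table, adjusted p 0.0200). Ppt1, Ctsd and Ctsl, the last of which overlaps an antisense gene and a pseudogene, are uncertain in the same way.

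The promoters of the lysosomal genes were searched for the E-box core, with sequences and positions from RefSeq on GRCm38.p6 (mm10). The windows ran from 250 bases before to 50 bases after each start, and both strands were read; CACGTG is its own reverse complement and contains ACGTG, the core bound by hypoxia-inducible factors. Of the 35 genes in the promoter table (Ctsb, Ctsh, Npc1, Asah1 and Atp6v1h were not among them), 14 held CACGTG (40%), against 8.09% of 27025 genes. The longer TCACGTGA was in 7 of those 14, or 20% of the 35, against 1.125% of all genes. Among the genes called lower, 1 of 6 held CACGTG, namely Gla, and among those not called, 13 of 29. The median log2 ratio was -0.16 over genes with the core and -0.20 over genes without it. A match describes the letters and does not show that a factor binds.

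Sequences are shown for the promoter with the most cores, for the called gene that has cores, for the TFEB-regulating channel, and for the hydrolases Ctsd, Naglu and Gaa. CACGTG is in capitals and everything else in lower case, 5′ to 3′ on the strand of the gene. The 250 bases before the start of Lamp1 (chr8:13158911-13159160, plus strand) hold 4 cores, the first starting at -61, and the 250 bases before the start of Cd68 (chr11:69666171-69666420, minus strand), the gene with the smallest p, hold 0.
Lamp1: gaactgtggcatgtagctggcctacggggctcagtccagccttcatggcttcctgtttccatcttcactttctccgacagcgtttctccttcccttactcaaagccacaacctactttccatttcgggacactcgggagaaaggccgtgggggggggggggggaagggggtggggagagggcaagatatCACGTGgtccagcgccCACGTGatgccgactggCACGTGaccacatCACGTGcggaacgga
Cd68: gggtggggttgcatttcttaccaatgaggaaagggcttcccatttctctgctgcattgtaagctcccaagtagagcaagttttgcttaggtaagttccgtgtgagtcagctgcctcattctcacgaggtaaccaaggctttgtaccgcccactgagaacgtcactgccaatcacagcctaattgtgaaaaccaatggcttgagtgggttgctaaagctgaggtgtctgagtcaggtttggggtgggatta
The following stretches of 24 bases each hold 1 core. Those of Gla lie at chrX:134601218-134601241 and chrX:134601185-134601208 (minus strand, cores starting at -227 and -194 from the start), those of Mcoln1 at chr8:3500439-3500462 and chr8:3500465-3500488 (plus strand, -71 and -45), and that of Ctsd at chr7:142387911-142387934 (minus strand, -98). Those of Naglu and Gaa lie at chr11:101070012-101070035 (plus strand, -73) and chr11:119267814-119267837 (plus strand, -140). Ctsd holds another core at -245, too near the edge of the window to be shown with its flanks.
Gla, first: gcgattgatCACGTGagcatctac
Gla, second: gatctcggtCACGTGagcaactct
Mcoln1, first: cgcgcttgtCACGTGttcagttca
Mcoln1, second: cgccccgctCACGTGaccgcggcg
Ctsd: cccgcgtctCACGTGacccgttga
Naglu: ccttcaggtCACGTGgcccgaggt
Gaa: ctgtgcgatCACGTGtttgactct
Both Gla stretches and the second of Mcoln1 extend the core to TCACGTGA, as does that of Ctsd, and those of Naglu and Gaa do not.

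Other genes of the pathway were counted in the same test, in which 3.52% of all genes were called lower and 2.51% higher. Of the 12 calls in these lists limma made 1, Gm2a, and gave the other 11 adjusted p of 0.0562 to 0.130. Of 44 other lysosomal hydrolases and their cofactors, 5 fell and 0 rose, with a median log2 ratio of -0.17. Gm2a encodes the activator that presents GM2 ganglioside to beta-hexosaminidase A; it stood at 9229 ± 266 and 6058 ± 508 normalized counts (SD, n = 3 each), and it fell (adjusted p 4.41e-06 in the authors' deposited table, 0.0219 with limma). The others that fell were Plbd1, a phospholipase B-like protein (3555 ± 369 and 2512 ± 122), Idua, alpha-L-iduronidase (1799 ± 31.9 and 1318 ± 145), Hyal1, a hyaluronidase (430.3 ± 77.2 and 246 ± 64.4), and Pla2g15, a lysosomal phospholipase A2 (12067 ± 779 and 8989 ± 1063). Lyz2, lysozyme, the most abundant of them, whose reads can be shared with its near-identical copy Lyz1, had authors' means of 441691 and 458049 and was not called.

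Of 17 other V-ATPase subunits 1 fell and 0 rose, with a median of -0.08. The gene that fell was Atp6v0d2, an isoform of the d subunit enriched in osteoclasts and macrophages, at 389 ± 14.5 and 281 ± 4.49 normalized counts. Among 38 other lysosomal membrane proteins and transporters, Sidt2, linked to nucleic acid transport into lysosomes, fell (3726 ± 118 and 2665 ± 377) and Tmem55b, which positions lysosomes in the cell, rose (2188 ± 133 and 2850.2 ± 110.4); the median was -0.02. Of 26 MiT factors and their regulators, Tfec, a relative of TFEB found in macrophages, fell (338 ± 71.0 and 199 ± 34.6), and Ywhaz, a 14-3-3 protein of the family that holds TFEB in the cytoplasm, rose (11146 ± 873 and 15238 ± 1015); the median was -0.03. Mitf stood at 1465 ± 174 and 1195 ± 110.1 and was not called.

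The V-ATPase, membrane protein and MiT lists thus gave 1 lower call each, too few to set them apart from that background. Sorting and autophagy genes likewise gave 1 call each, a share near the background. Of 27 genes that sort proteins to the lysosome, Ap1b1, a subunit of the AP-1 adaptor, fell (9521 ± 769.5 and 6989.7 ± 731) and 0 rose, with a median of -0.02. Of 30 autophagy genes, Optn, the cargo receptor optineurin, fell (1681 ± 31.1 and 1133 ± 207) and 0 rose, with a median of -0.10. Of 6 tested cathepsin inhibitors 0 passed in either direction, with a median of -0.21; Cstb, which inhibits cathepsins B and L, stood at 7716 ± 465 and 6464 ± 753 (SD, n = 3 each).

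**Figure D5:**
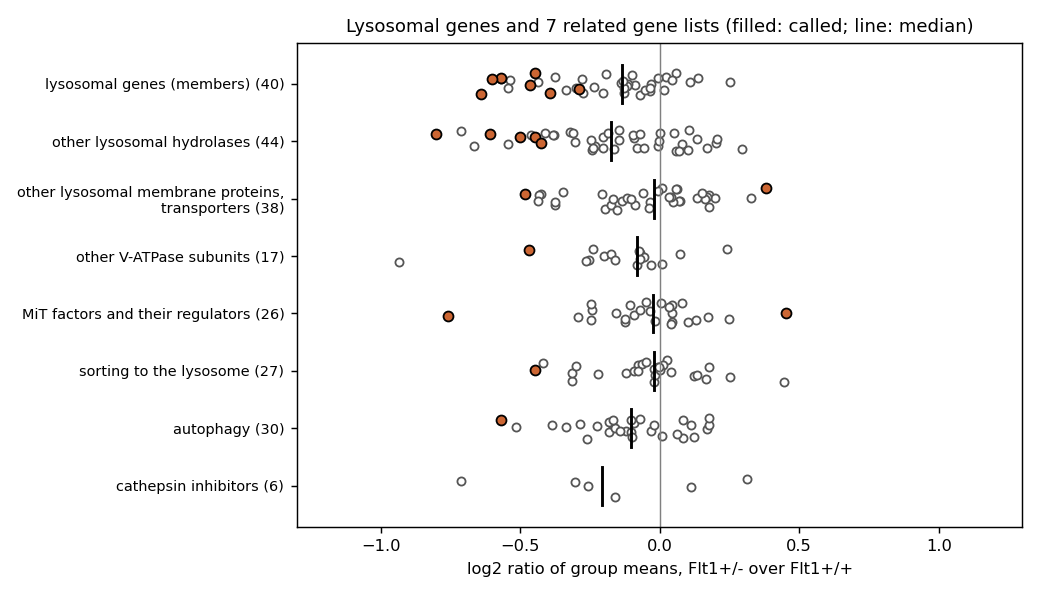
Log2 ratio of the group means, Flt1+/- over Flt1+/+ (horizontal axis), for each tested gene of the 40 lysosomal genes and of 7 related lists (points, filled where called at an adjusted p of 0.05), with the median of each list as a line. The medians run from -0.21 for cathepsin inhibitors to -0.02, and the median over all tested genes is -0.01.

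Markers of the cells present moved with genotype beside these values, in the test that called 3.52% of all genes lower and 2.51% higher. Macrophage markers were abundant in both groups (authors' means of Adgre1 294266 and 258965, of Lyz2 441691 and 458049), and none of 20 had a mean under 10; 5 of 20 fell, namely Mrc1, Csf1r, Trem2, C1qb and Cd68, and 0 rose, with a median log2 ratio of -0.26. Cd68 is counted both here and among the lysosomal genes, and Lyz2 both here and among the other lysosomal hydrolases. Mmp9 (authors' means 2311 and 2937) is in both the neutrophil and the osteoclast list. Acp5 and Atp6v0d2, in the osteoclast list, are also among the other hydrolases and the other V-ATPase subunits. The sum over the 14 resolved macrophage markers was 90802 to 105453 normalized counts in wild type libraries and 68201 to 82130.2 in Flt1+/- libraries, without overlap. The authors' means summed over all 20 were 980838 and 918652. Among 14 tested neutrophil and precursor markers 10 rose and 1, Csf3r, fell, with a median log2 ratio of 3.88; authors' means were 47.1 and 774 for S100a8, 11.5 and 708 for Ngp and 8.90 and 349 for Ltf. Their sums over 18 markers, of which Csf3r is the largest term (authors' means 7889.9 and 5436), were 10867 to 11622 and 12613 to 13542; Elane, Mpo, Prtn3 and Ctsg had means under 10. Stromal markers summed to 1521 to 2076 and 2648 to 2880.4, and Lum and Thy1 had means under 10. Of 10 tested, 3 rose (Postn, Acta2 and Tagln), 0 fell and 7 were not called. Postn was the largest term (authors' means 926 and 1572). Of the 7, Pdgfrb (199 and 152) and Dcn (58.5 and 53.5) had lower means in Flt1+/-. The neutrophil and stromal sums were thus higher in every Flt1+/- library than in any wild type library. The 8 resolved osteoclast markers summed to 8077 to 9337 and 9409 to 11378, but with the unresolved Acp5 (authors' means 29401 and 23713) the list summed to 38015 and 33839, the other direction, with Tnfrsf11a higher and Atp6v0d2 lower among 6 tested and with Dcstamp, Ocstamp and Oscar under a mean of 10. Of 6 dendritic cell markers Ccr7 fell, with sums of 741 to 1135 and 552 to 994 and Flt3, Siglech, Cd209a and Dpp4 under a mean of 10. The dendritic sums overlapped between genotypes. Among B and plasma cell markers 2 of 4 tested fell, Igkc (authors' means 358 and 15.1) and Jchain (47.2 and 3.68). The sums of that list, 20035 to 23900.1 and 21472 to 24237, are mostly Ighm (authors' means 15819 and 16328) and Cd79b (5625 and 6053). Neither Ighm nor Cd79b was called, and both had higher means in Flt1+/-. Cd4 fell among 2 tested T and NK cell markers (691 to 775 and 446 to 599), and Kit, the tested mast cell marker, did not pass (16.8 to 32.4 and 18.9 to 24.5 over that list). The part of these cell markers in the lower lysosomal values was not tested.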

How the data were processed

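Per the labels' protocols, total RNA was depleted of rRNA and made into stranded libraries. FastQC, TopHat 1.0.0, Cufflinks and build mm10 are named, without roles, per the submitters' processing notes; how reads were counted, and whether by strand, is not given in the sources used here. The deposited group signal is the authors' mean over 3 libraries of counts divided by a size factor, per the file headers and the values. Deposited log2 fold changes and standard errors (positive where Flt1+/- is higher), the deposited score (fold change over standard error) and the deposited p-values, raw and adjusted, come from the authors' test between genotypes. Adjusted p was missing for 10989 genes and stayed missing. The design had foreseen per-sample or group values; group values were found, so the authors' test was counted, at an adjusted p of 0.05 and a mean of at least 1.

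Each group mean adds 3 whole counts, each multiplied by a step that its size factor sets. Steps and counts were solved for 26571 of 26778 genes (99.2%), a gene being kept where 1 solution existed overall or within 30% of the mean. Means of random genes and of the lysosomal genes were also simulated, with a dispersion (spread between libraries) of 0.0139. Of these 0 came back wrong, and 221 wild type and 205 heterozygote draws of 800 each for the lysosomal genes were not resolved. Real Flt1+/- libraries of Gaa, Naglu, Tfeb and Ctsk lay more than 30% from their group mean, as did wild type libraries of Tfeb and Ctsk. The simulation therefore cannot test whether the 30% condition holds for the genes solved only under it. Tests on recovered counts used limma 3.58.1 under R 4.3.3, with a mean-variance trend, on log2(normalized count + 1) of genes with a mean of 10 or more, and Benjamini-Hochberg adjustment over 15361 genes. No exact permutation test was used, because with 3 libraries a group it reaches p = 0.1 at best. Log2 ratios compare group means after adding 1 to each, so changes of low genes are understated. Python 3.11.15, numpy 2.4.6 and pandas 2.3.3 did the rest.

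The 40 genes, the related lists, the markers and the tests were chosen with earlier results of these data known. All 40 genes are accounted for; the rule gives full values to called genes, the 5 most abundant, Tfeb, Tfe3, Mcoln1 and Cd68. Psap, Ctsb, Hexa, Ctsd, Lamp1 and Grn among these could not be resolved and have group means alone. Library values were also given for others whose groups did not overlap or stood out (Neu1, Naglu, Gaa, Ctsf, Ctsc, Smpd1 and Atp6v0d1, named after their values were seen). Up to 4 genes of each related list were named by the smallest adjusted p, most often the called ones alone, with Pla2g15, Lyz2, Fdft1, Pltp, Tmem202 and Gm49369 named after their values were seen. Alternatives covered thresholds, filters, pseudocounts, scaling, library sets and leaving out each library.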

Additional observations from a re-analysis of the deposited data

How the results depend on the processing

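Of 254 alternative values, 220 kept their direction and their side of the threshold or stayed within the set limits, 22 counts or medians moved further, 6 lost and 1 gained a call, and 5 changed sign, all for genes not called. Many of the 254 could hardly change, such as log2 ratios of abundant genes under other pseudocounts, scored by sign alone, and counts that stayed at 0. The 220 therefore does not measure how stable the results are. The limma difference of Tfeb ran from -1.03 without heterozygote B to 0.12 without heterozygote A (-0.52 with all libraries). That of Tfe3, 0.01 with all libraries, was -0.067 with a term for the library sets and ran from -0.073 to 0.11 as single libraries were left out (-0.054 without wild type A, -0.073 without heterozygote B, -0.0023 without heterozygote C). With the authors' deposited table read at an adjusted p of 0.01, 4 rather than 7 of the lysosomal genes were lower and 2 rather than 5 of the other hydrolases (4 with adjustment over every gene that has a deposited p); the lower calls among membrane proteins, V-ATPase subunits, MiT factors, sorting and autophagy genes, and the higher call among membrane proteins, went to 0. At 0.1, lower calls went to 2 among membrane proteins, V-ATPase subunits and autophagy genes, and higher calls to 2 among membrane proteins. limma called 0 lysosomal genes lower with upper quartile scaling and 2 with a term for the library sets, Cd68 and Man2b1 (2.15% of genes lower), and 0 to 4 as single libraries were left out, with 4 only without heterozygote B. Cd68 lost its limma call with upper quartile scaling (adjusted p 0.0662) and in the omissions other than heterozygote B. The median limma difference, -0.13 over 28 genes, ran from -0.195 without wild type C to -0.086 without wild type A, and was -0.20 over the 21 genes with 1 solution over all whole counts, an alternative chosen after seeing the data, which leaves out 7 abundant genes. The cause of the other shifts was not tested. Of 28 genes, 19 had limma differences below 0 in all 6 omissions, 2 above 0 in all, and 7 changed sign. These omissions share most of their libraries, and the share over all genes was not counted. No paired analysis was possible because the group means and the recovered libraries carry no replicate numbers. The 12 unresolved genes, Psap and Ctsb among them, have no check between libraries.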
